A study of Bos taurus with 64 samples.

Results

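The microRNAs (miRNAs) miR-28 and miR-708 were followed across skeletal muscle of Holstein-Friesian and Charolais steers. They are 2 of the 1030 miRNA names counted in the series, and both were among the 318 names with enough reads to be tested. The table names them bta-miR-28 and bta-miR-708, and they form one family. They were chosen by their measured levels, that is, by how these differed between the breeds, the diets and the feed efficiency classes. The differences between those groups are therefore described as levels, with no test. What was tested is whether the diet difference itself differed between the breeds, and whether the pair moved together among steers of the same group. The breed by diet test is built from the same group levels that guided the choice. Its p-values are therefore not independent of that choice.

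A miRNA is a short RNA that pairs with messenger RNAs and lowers their translation or stability. Pairing is set mainly by its seed, a stretch near the 5′ end, and miR-28 and miR-708 share theirs, so they can recognise overlapping targets. In germinal-centre B cells of mouse and human, miR-28 dampens signalling from the B-cell receptor. In mouse muscle, miR-708 is induced by Notch in satellite cells, the resident stem cells, and keeps them quiescent and in their niche by repressing Tensin3. miR-151 belongs to the same evolutionary lineage. In a cattle gene table of a later genome build than the one used for the counts, the gene of miR-28 lies within LPP, that of miR-708 within TENM4 and that of miR-151 within PTK2.

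The study set Holstein-Friesian steers, a dairy breed, against Charolais steers, a beef breed, and steers of low residual feed intake (RFI) against steers of high RFI. RFI is the feed eaten beyond that predicted for size and growth, so a low-RFI steer is feed efficient. Intake was recorded for 77 Holstein-Friesian and 90 Charolais steers over a pair of 70-day feeding phases with 14 days of acclimatisation between them. All steers were fed zero-grazed grass in the earlier phase. In the later one they had a high-concentrate diet, mainly rolled barley, with a restricted amount of grass silage.

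Muscle was taken at the end of each phase, and 8 groups of 8 libraries were sequenced. On concentrate these were low-RFI Holstein-Friesian, high-RFI Holstein-Friesian, low-RFI Charolais and high-RFI Charolais steers, and on grass the same 4 classes. The sources used here do not give the steers' ages or which muscle was sampled. Because grass always came before concentrate, diet cannot be told apart from the order of the phases, from age or from any difference in processing between phases. The 64 libraries came from 59 steers, and 5 steers gave a library in each phase. One of these was labelled high-RFI on grass and low-RFI on concentrate.

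Total counts per library ran from 4795950 to 12245155. One name, miR-10b, took between 19.3% and 74.5% of the counts, so levels are given as CPM, counts relative to the size of the library, after TMM scaling, which corrects that size by the typical miRNA. The TMM factor was over 1.8 or under 0.6 in 3 libraries. Of the 8 striated-muscle names used to check the tissue label, miR-486 averaged 104825 CPM and miR-133a 74317 CPM. The match to the label rests on these abundant names, as the list was uneven. Lower in it were miR-133b at 8983, miR-208b at 825, miR-499 at 346, miR-1 at 247 and miR-206 at 14.6 CPM. The scarcest of the list was miR-208a. In bulk muscle, fewer cells of a type and less RNA per cell cannot be told apart.

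Of the pair, miR-28 was the more abundant and by far the steadier. It averaged 51.6 CPM over the 64 libraries, which placed it at rank 112 of the 318 tested names, on 177 to 2026 reads per library. Among steers of the same group its SD was 0.25 on the log2 CPM scale, against a median of 0.44 over all tested names, and 33 names had a smaller one. miR-708 averaged 10.96 CPM, at rank 170, on 20 to 665 reads per library. Its within-group SD was 0.72, and 284 of the 318 names had a smaller one. Counting alone gives an SD of 0.08 for miR-28 and 0.17 for miR-708 at their median counts, so the spread in both was larger than counting error. That counting error is a lower limit, because the reads carry no molecular identifiers and some may be copies of 1 molecule.

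**Figure D1:**
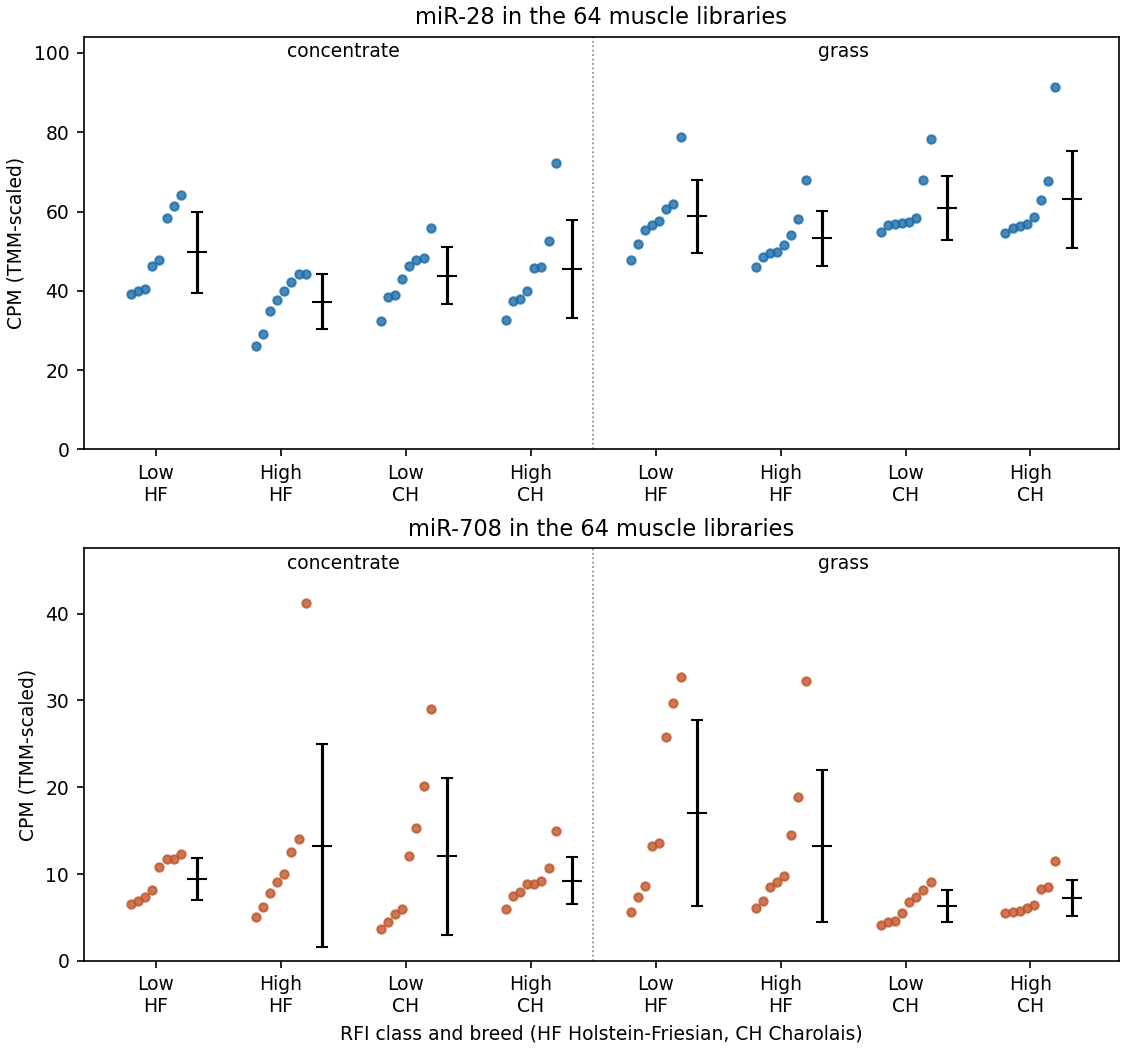
Level of miR-28 (upper panel) and miR-708 (lower panel) in CPM, by RFI class and breed on concentrate (left) and grass (right), with 8 steers a group. Coloured points are libraries, and black bars are the mean ± SD. Most concentrate steers sit below the grass steers in miR-28, and 7 steers in 4 groups stand above 20 CPM in miR-708.

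The level of miR-28 was lower on concentrate. It averaged 44.1 ± 10.1 CPM in concentrate steers and 59.0 ± 9.63 CPM in grass steers (SD, n = 32 each). The log2 difference was -0.43 ± 0.07 (SE). Of the 32 concentrate libraries, 28 lay below the median of the grass libraries and 21 below the lowest of them. The ranges of the diets overlapped, since 11 concentrate libraries had levels also seen on grass.

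Within Holstein-Friesian steers on concentrate, miR-28 ran from 39.2 to 64.1 CPM around a median of 47.1 CPM in the low-RFI group, and from 26.1 to 44.3 CPM around 38.9 CPM in the high-RFI group. In Charolais steers on concentrate it ran from 32.5 to 55.7 CPM around 44.6 CPM in the low-RFI group, and from 32.7 to 72.2 CPM around 42.9 CPM in the high-RFI group. Every group on concentrate therefore had a lower median than every group on grass, and the high-RFI Holstein-Friesian group had the lowest. On grass, the low-RFI Holstein-Friesian group ran from 47.8 to 78.7 CPM around 57.2 CPM, and the high-RFI Holstein-Friesian group from 46.1 to 68.0 CPM around 50.7 CPM. The low-RFI Charolais group on grass ran from 54.9 to 78.2 CPM around 57.3 CPM, and the high-RFI Charolais group from 54.7 to 91.4 CPM around 57.7 CPM. The ranges of the 4 groups on grass overlapped.

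The lower level on concentrate was seen in both breeds. The log2 difference of concentrate minus grass was -0.38 ± 0.09 in Holstein-Friesian and -0.47 ± 0.09 in Charolais steers (SE, 16 libraries a diet). On concentrate, 11 of 16 Holstein-Friesian libraries and 14 of 16 Charolais libraries lay below the lowest library of their breed on grass. The tested difference between these diet differences was 0.09 ± 0.13, with an adjusted p of 0.691 by edgeR's quasi-likelihood test with Benjamini-Hochberg adjustment over 318 names. Its sign was not stable: it was -0.022 with upper-quartile scaling and -0.045 with scaling to the total count. A breed-dependent diet difference in miR-28 was therefore not detected.

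Sampling the same steer on both diets showed the same order. Among the 5 steers with both libraries, 4 Charolais and 1 Holstein-Friesian, miR-28 was lower on concentrate in 5 of 5. The paired levels, on concentrate against grass, were 72.2 against 91.4 CPM, 37.5 against 55.8 CPM, 43.0 against 54.7 CPM and 47.8 against 56.8 CPM in the Charolais steers, and 42.1 against 68.0 CPM in the Holstein-Friesian steer. The median log2 difference within a steer was -0.35. These libraries are part of the group values above and add no independent steers.

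**Figure D2:**
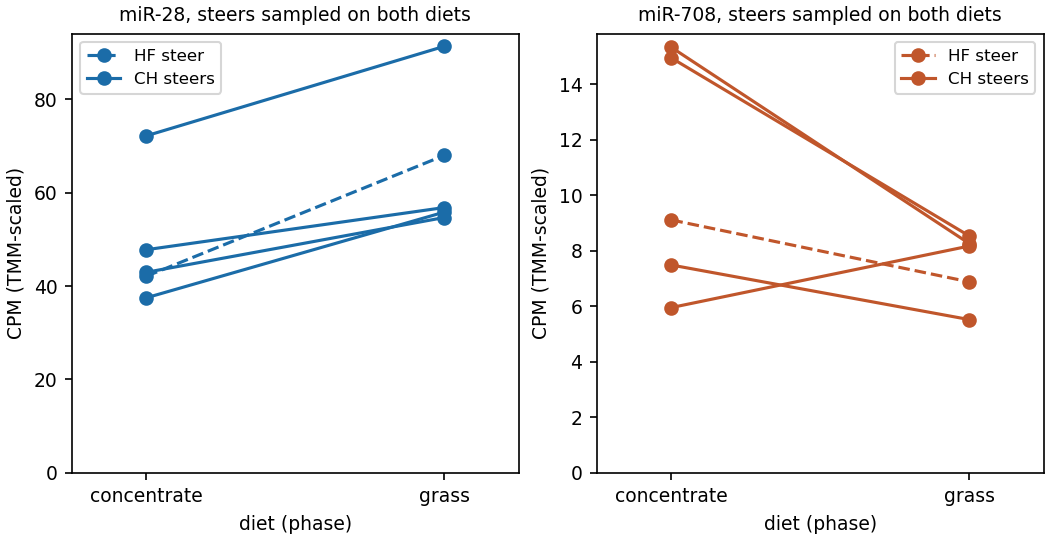
Level of miR-28 (left) and miR-708 (right) in CPM in the 5 steers with a library on concentrate and on grass, each steer a line (dashed, Holstein-Friesian; solid, Charolais). All 5 lines for miR-28 are lower on concentrate, while 4 of 5 lines for miR-708 are higher there.

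The RFI classes were farthest apart in miR-28 in 1 of the 4 breed and diet combinations. In Holstein-Friesian steers on concentrate it averaged 49.7 ± 10.2 CPM in the low-RFI group and 37.3 ± 6.85 CPM in the high-RFI group (SD, n = 8 each), a log2 difference of 0.41 ± 0.13 (SE) or 1.33-fold. All 8 low-RFI libraries lay above the high-RFI median, and 5 of 8 lay above the highest high-RFI library. In that comparison 0.00% of the 318 tested names were called (34 at an unadjusted p under 0.05). With total-count scaling the difference was 0.09. The summed level of 8 blood and immune miRNAs, mostly miR-451 of red cells, moved beside it. Its median was 3744 CPM (1342 to 13229) in the low-RFI group and 8248 CPM (1216 to 20874) in the high-RFI group. Its part in the difference was not tested.

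In the other combinations the classes overlapped and differed by about an SE or less. The log2 difference of low minus high RFI in miR-28 was 0.14 ± 0.13 in Holstein-Friesian steers on grass, -0.05 ± 0.13 in Charolais steers on concentrate and -0.05 ± 0.13 in Charolais steers on grass. None of these had a stable sign. With 1 library left out, and the filter and scaling redone, the difference ran from -0.024 to 0.12 in Holstein-Friesian steers on grass, the lowest without the low-RFI steer at 78.7 CPM. It ran from -0.14 to 0.025 in Charolais steers on concentrate, positive without the high-RFI steer at 72.2 CPM, and from -0.083 to 0.047 in Charolais steers on grass, highest without the high-RFI steer at 91.4 CPM. Averaged over breeds and diets it was 0.11 ± 0.07. No name of the 318 was called in that average contrast by edgeR, DESeq2 or limma-voom (0.00%), and 11 had an unadjusted p under 0.05 in edgeR.

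Averaged over diets, breed made little difference to miR-28. Holstein-Friesian libraries averaged 49.8 ± 11.3 CPM and Charolais libraries 53.4 ± 13.1 CPM (SD, n = 32 each), with a log2 difference of -0.10 ± 0.07 (SE). It was -0.05 ± 0.09 on concentrate and -0.15 ± 0.09 on grass. The ranges of the breeds overlapped on both diets, but on grass 8 of 16 Holstein-Friesian libraries lay below the lowest Charolais library. On concentrate 2 of 16 did. The average difference was 0.08, the opposite sign, with scaling to the total count without miR-10b.

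The level of miR-708 was higher in Holstein-Friesian than in Charolais steers on grass. Among grass steers it averaged 15.2 ± 9.66 CPM in Holstein-Friesian and 6.74 ± 1.96 CPM in Charolais steers (SD, n = 16 each), a log2 difference of 1.15 ± 0.26 (SE) or 2.22-fold. Of the 16 Holstein-Friesian libraries on grass, 14 lay above the Charolais median and 8 above the highest Charolais library. On concentrate the breeds overlapped almost fully, with 11.3 ± 8.39 CPM in Holstein-Friesian and 10.6 ± 6.60 CPM in Charolais steers, and the difference was 0.10 ± 0.26. It was -0.19 without the Holstein-Friesian steer at 41.2 CPM. Over both diets it was 0.62 ± 0.18, from 13.2 ± 9.11 CPM in Holstein-Friesian and 8.68 ± 5.18 CPM in Charolais libraries (n = 32 each).

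A few high steers made much of the spread of miR-708. Low-RFI Holstein-Friesian steers on grass ran from 5.57 to 32.7 CPM around a median of 13.4 CPM, and high-RFI Holstein-Friesian steers on grass from 6.11 to 32.2 CPM around 9.42 CPM. The Charolais steers on grass were tightly grouped, from 4.17 to 9.03 CPM around 6.16 CPM in the low-RFI group and from 5.52 to 11.5 CPM around 6.28 CPM in the high-RFI group. No Charolais library on grass reached 20 CPM, a level chosen after the values were seen, while 4 Holstein-Friesian libraries on grass exceeded it.

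On concentrate the high steers were in other groups. Low-RFI Holstein-Friesian steers ran from 6.55 to 12.3 CPM around 9.47 CPM, and high-RFI Holstein-Friesian steers from 5.06 to 41.2 CPM around 9.53 CPM. Low-RFI Charolais steers ran from 3.70 to 29.1 CPM around 9.03 CPM, and high-RFI Charolais steers from 6.01 to 14.9 CPM around 8.81 CPM. The 4 medians on concentrate were nearly equal, and 3 concentrate libraries exceeded 20 CPM: 1 high-RFI Holstein-Friesian and 2 low-RFI Charolais.

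The diet difference of miR-708 had opposite signs in the breeds. Concentrate minus grass was -0.41 ± 0.26 in Holstein-Friesian and 0.64 ± 0.26 in Charolais steers on the log2 scale (SE), which left 0.11 ± 0.18 on average. The average had no stable sign, at -0.0033 without the high-RFI Holstein-Friesian steer at 41.2 CPM on concentrate and -0.11 with total-count scaling. With 1 library left out, the Holstein-Friesian difference ran from -0.68, without that steer, to -0.27, without either of 2 Holstein-Friesian steers on grass, and the Charolais difference from 0.49 to 0.75. The levels over both breeds were 10.98 ± 7.44 CPM on concentrate and 10.9 ± 8.08 CPM on grass (SD, n = 32 each). The tested difference between the diet differences was -1.05 ± 0.37, with a p of 0.00554 and an adjusted p of 0.0800 by edgeR's quasi-likelihood test, and so it did not pass. In this contrast 0 of the 2 miRNAs were called, against 3.46% of the 318 tested names (7 higher and 4 lower).

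That value lay close to the threshold, and a single steer could bring it to either side. It is built from the breed and diet levels by which miR-708 was chosen, so no p-value given for it is independent of that choice. It passed without the highest steer, a high-RFI Holstein-Friesian on concentrate with 41.2 CPM (-1.35, adjusted p = 0.00868). It also passed when 1 low-RFI Holstein-Friesian steer on grass (-1.12, adjusted p = 0.0391) or either of 2 low-RFI Charolais steers on concentrate (-1.11 and -1.15, adjusted p = 0.0487 and 0.0465) was left out, and with DESeq2 (-1.13, adjusted p = 0.0462). Over the other scalings, filters and models the adjusted p ran up to 0.308, and the sign was negative in all of them. Leaving out 1 library at a time gave -1.35 to -0.92. Without the 3 libraries of extreme TMM factor it was -1.17 (adjusted p = 0.0681), the grass breed difference of miR-708 was 1.29 ± 0.27 and the diet difference of miR-28 was -0.41 ± 0.06.

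**Figure D3:**
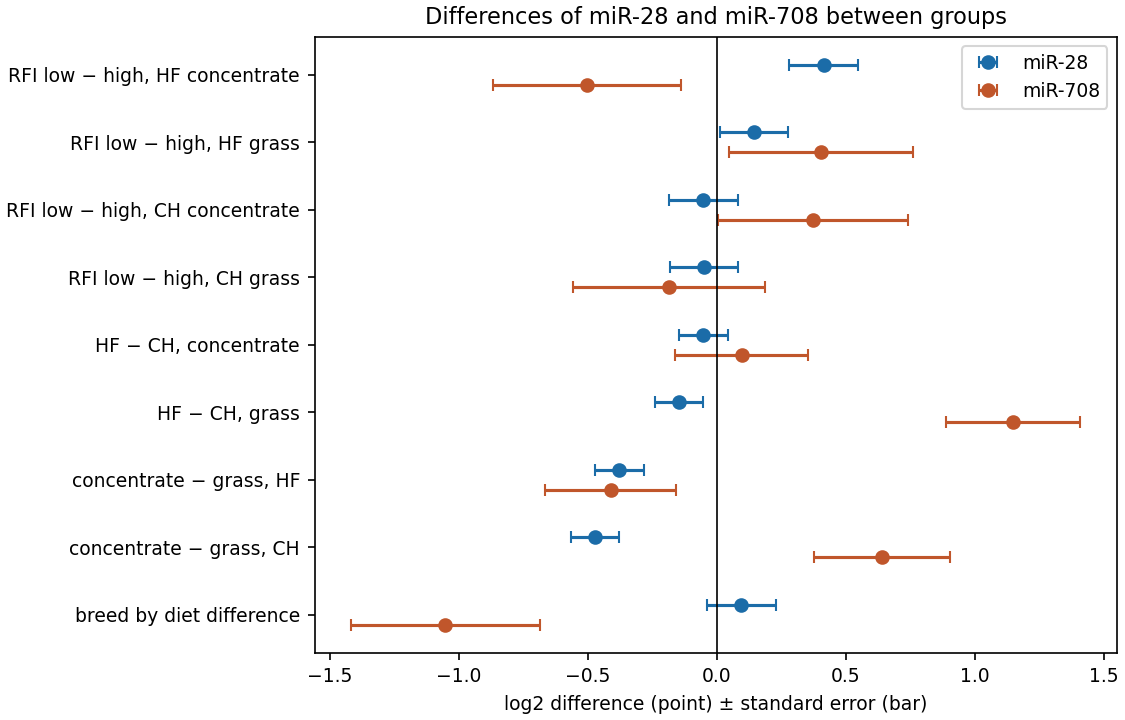
Log2 differences of miR-28 (blue) and miR-708 (orange) between groups, the group named first minus the group named second at the left, with the standard error as bars (HF Holstein-Friesian, CH Charolais). The diet differences of miR-28 lie together near -0.4 in both breeds, while those of miR-708 lie at -0.41 in HF and 0.64 in CH, which is the breed by diet difference of -1.05 in the lowest row.

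Within steers sampled on both diets, miR-708 was higher on concentrate in 4 of 5. The paired levels were 7.49 on concentrate against 5.52 CPM on grass, 14.9 against 8.53 CPM, 15.3 against 8.26 CPM and 5.95 against 8.17 CPM in the 4 Charolais steers, and 9.11 against 6.88 CPM in the Holstein-Friesian steer. The median log2 difference was 0.42. The 1 Holstein-Friesian steer thus did not follow the sign of its breed's group difference.

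RFI class had no one direction in miR-708. Low minus high RFI was -0.50 ± 0.36 in Holstein-Friesian steers on concentrate, 0.40 ± 0.36 in Holstein-Friesian steers on grass, 0.37 ± 0.37 in Charolais steers on concentrate and -0.18 ± 0.37 in Charolais steers on grass. The libraries of low-RFI and high-RFI groups overlapped in all 4. Single steers moved all 4. With 1 library left out, the difference ran from -0.57 to 0.08 in Holstein-Friesian steers on concentrate, where it was positive without the high-RFI steer at 41.2 CPM, and from 0.12 to 0.68 in Holstein-Friesian steers on grass. It ran from -0.029 to 0.45 in Charolais steers on concentrate, where it was 0.014 with the animal as a random block, and from -0.31 to -0.05 in Charolais steers on grass. The average over the 4 was 0.02 ± 0.18.

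Ordered by mean log2 CPM, the 8 groups formed a gradual series for both miRNAs. For miR-28 the 4 grass groups came first and the 4 concentrate groups after them, with 0.76 between the highest, high-RFI Charolais on grass, and the lowest, high-RFI Holstein-Friesian on concentrate. For miR-708 low-RFI Holstein-Friesian on grass came first and low-RFI Charolais on grass last, with 1.201 between them, and the concentrate groups stood in the middle. All 7 gaps between neighbours were within the smaller SD of the neighbours, for both miRNAs, so neighbouring groups did not differ beyond their spread.

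The ratio of miR-708 to miR-28 counts does not depend on how libraries are scaled. Its log2 value averaged -2.10 ± 0.78 in Holstein-Friesian and -2.26 ± 0.92 in Charolais steers on concentrate (SD, n = 16 each). On grass it averaged -2.13 ± 0.86 in Holstein-Friesian and -3.24 ± 0.53 in Charolais steers. Charolais steers on grass thus had the least miR-708 per miR-28, and the other breed and diet combinations were alike in their means. In 1 of the 64 libraries, the high-RFI Holstein-Friesian steer on concentrate with the highest miR-708, the ratio was above 1 (log2 0.24).

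Among steers of the same group, miR-28 and miR-708 were not detectably related. The deviations of log2 CPM from the group means had a Pearson r of -0.07 (p = 0.587) and a Spearman rho of -0.10 (p = 0.432) over 64 libraries, by a two-sided permutation test within groups. By the same permutation test, r within the phases was -0.09 on concentrate (p = 0.614) and -0.04 on grass (p = 0.838), and the adjusted p over these 3 relations was 0.838 for each. Without the 2 libraries farthest from the median in miR-28, r was -0.04. With total-count scaling r was 0.44 (permutation p = 0.0003), and with miR-10b also left out of the total it was 0.23 (permutation p = 0.0789). Why the sign changed with these scalings was not tested.

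Each had its own companions among the 171 names averaging 10 CPM or more. The 5 names most like miR-28 in their deviations from the group means over 64 libraries were miR-1388-5p (r = 0.59), miR-192 (0.58), let-7c (0.57), let-7e (0.54) and miR-191 (0.53). Those most like miR-708 were miR-204 (r = 0.83), which restrains bone-forming differentiation of mesenchymal cells by repressing RUNX2, then let-7i (0.82), miR-199a-3p (0.79), miR-199c (0.79) and miR-199a-5p (0.77). The miR-199 family is abundant in fibroblasts and other mesenchymal cells, and miR-199c had nearly the same counts as miR-199a-3p, so these may be the same reads. Over the 8 group means, miR-125b (r = 0.97), let-7a-5p (0.94) and miR-95 (0.92) were most like miR-28. Those most like miR-708 were miR-23b-3p (0.95), miR-10174-3p (0.95), whose counts nearly equal those of miR-23b-3p, and miR-155 (0.94). All values share the libraries and their scaling factors, and are given as descriptions.

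The miR-151 arms, the lineage relatives of miR-28, were more abundant, and 1 of them was lower on concentrate. miR-151-5p averaged 793 CPM and miR-151-3p 771 CPM. On concentrate against grass, miR-151-5p fell by 0.34 (SE 0.09, adjusted p = 0.00205), and miR-151-3p had a log2 difference of -0.06 (adjusted p = 0.364) by edgeR. That is 0 higher and 1 lower of 2, where 34.0% of all tested names were called, 57 higher and 51 lower. Between Holstein-Friesian and Charolais libraries the differences were -0.13 (adjusted p = 0.275) for miR-151-5p and -0.01 (adjusted p = 0.932) for miR-151-3p, and the sign of both changed with the scaling. Among steers of a group their summed level was correlated with miR-28 (r = 0.48, rho = 0.58, n = 64, adjusted p = 5e-05, permutation test over 10 relations of the pair with 5 lists). The r was 0.72 on concentrate, 0.31 on grass and 0.63 without the 2 libraries farthest from the median of the sum. Its size depended on the setting. It was 0.31 without the 3 libraries of extreme TMM factor and 0.39 when the repeated steers kept only their grass libraries. It was 0.37 with RLE scaling and 0.83 with total-count scaling. With miR-708 it was -0.08 (rho -0.10, adjusted p = 0.658).

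Satellite cell miRNAs, the setting in which miR-708 is known from mouse muscle, were higher in Holstein-Friesian muscle in part. Of 7 names, 6 were tested, and 3 rose and 0 fell in Holstein-Friesian against Charolais libraries, where 21.7% of all tested names were called, 35 higher and 34 lower. They were miR-206, which promotes myoblast differentiation (0.89 ± 0.16, adjusted p = 6.38e-05), miR-222, which is tied to proliferation (0.52 ± 0.12, adjusted p = 0.00105), and miR-31, which represses Myf5 translation in quiescent mouse satellite cells (0.91 ± 0.24, adjusted p = 0.00501). Of these, miR-206 is also one of the striated-muscle names. The median over the 6 was 0.40, against -0.02 over all tested names. The values of miR-195, miR-497 and miR-221 were 0.14, 0.15 and 0.28, and none of them passed.

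miR-31 was scarce, at 0.673 CPM, and miR-489, a keeper of satellite cell quiescence in the mouse, was at 0 in 47 libraries and could not be tested. On grass alone, the same 3 names were higher in Holstein-Friesian steers, where 30.2% of all tested names were called, 47 higher and 49 lower. Of the 6, 5 were called there with RLE scaling, upper-quartile scaling or DESeq2, or when the repeated steers kept only their grass libraries. With total-count scaling without miR-10b, 6 were called. How many of all names were called on grass with these settings was not counted. Averaged over diets, the last of them called 114 of 318 names by breed, 109 of them higher. In the main fit on grass miR-206 differed by 0.81, miR-222 by 0.68 and miR-31 by 1.10 (adjusted p = 0.00428, 0.00207 and 0.00828). With limma-voom miR-31 no longer passed there, without a block (adjusted p = 0.0593) or with the animal as a random block (adjusted p = 0.0521). On concentrate against grass 1 of 6 was higher, miR-221 (0.37, adjusted p = 0.0354), and 1 lower, miR-497 (-0.25, adjusted p = 0.00592), a share near the 34.0% of all tested names called. With limma-voom miR-221 no longer passed, without a block (0.34, adjusted p = 0.0527) or with the animal as a random block (0.33, adjusted p = 0.05005).

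The summed level of the satellite cell names tracked miR-708 within groups and not detectably miR-28. The sum is mostly miR-195, which averaged 187 CPM of a summed 286 CPM and was not called by breed. The names called by breed were minor parts of it, with miR-206 at 14.6, miR-222 at 6.77 and miR-31 at 0.673 CPM. For miR-708 r was 0.47 and rho 0.43 (n = 64, adjusted p = 0.000975, permutation test), with 0.50 on concentrate and 0.44 on grass. It was 0.44 without the 2 libraries farthest from the median of the list. For miR-28 r was 0.09 (adjusted p = 0.623), and its sign changed with the scaling.

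Smooth muscle and fibroblast miRNAs were also higher in Holstein-Friesian muscle on grass, and their sum followed miR-708 within groups. On grass, 5 of 7 were higher and 0 lower in Holstein-Friesian than in Charolais steers, beside 30.2% of all tested names called (47 higher and 49 lower). They were miR-143, the most abundant (0.47 ± 0.16, adjusted p = 0.0163), miR-21-5p (0.75 ± 0.16, adjusted p = 0.000837), miR-199a-3p (0.65, adjusted p = 0.00326), miR-199a-5p (0.60, adjusted p = 0.0127) and miR-214 (0.64, adjusted p = 0.0162), the last named after its value was seen. The median over the 7 was 0.60, against 0.01 over all tested names. With limma-voom and no block, miR-143 (adjusted p = 0.0707) and miR-214 (adjusted p = 0.0525) no longer passed. With the animal as a random block in limma-voom, miR-143 (adjusted p = 0.0610) and miR-199a-5p (adjusted p = 0.0525) no longer passed.

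Averaged over diets, 3 of the 7 rose in Holstein-Friesian libraries, miR-143 (0.31, adjusted p = 0.0347), miR-21-5p (0.32, adjusted p = 0.0372) and miR-199a-5p (0.45, adjusted p = 0.0110), and 0 fell, beside 21.7% of all tested names called. With limma-voom 1 was called, both without a block and with the animal as a random block. Over 11 other settings, miR-199a-5p passed in 11, miR-143 in 8 and miR-21-5p in 5. In the breed by diet contrast 1 of 7 was called, beside 3.46% of all tested names (7 higher and 4 lower). It was miR-21-5p, at -0.86 (adjusted p = 0.0177), and it did not pass with total-count scaling (adjusted p = 0.209). The value of miR-143 was -0.31 (adjusted p = 0.398). The difference of miR-708 was also negative but did not pass. On concentrate against grass 1 of 7 was lower, miR-21-5p (-0.37, adjusted p = 0.00975), and 0 were higher, a smaller share than the 34.0% of all tested names. With limma-voom miR-21-5p no longer passed, without a block (adjusted p = 0.0623) or with the animal as a random block (adjusted p = 0.0542).

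Within groups, the summed level of the 7 had an r of 0.53 and a rho of 0.44 with miR-708 (n = 64, adjusted p = 0.0002). It was 0.41 on concentrate and 0.64 on grass, and 0.47 without the 2 libraries farthest from the median of the list. The sum is mostly miR-143. Its median on grass was 32167 CPM (16609 to 117180) in Holstein-Friesian and 28511 CPM (18339 to 40848) in Charolais steers. The part of these cells in the breed difference of miR-708 was not tested.

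**Figure D4:**
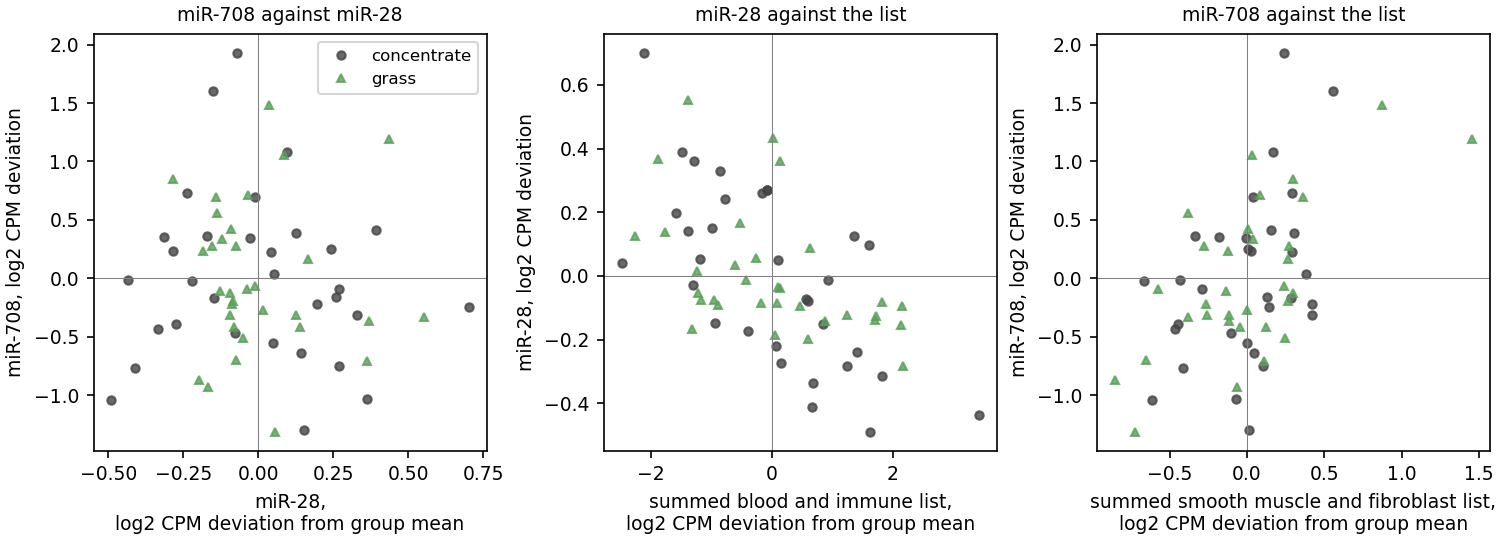
Deviations of log2 CPM from the group means in the 64 libraries (circles, concentrate; triangles, grass), for miR-708 against miR-28 (left), miR-28 against the summed blood and immune list (middle) and miR-708 against the summed smooth muscle and fibroblast list (right). The left panel shows no slope (r = -0.07), the middle a falling one (r = -0.59) and the right a rising one (r = 0.53).

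Blood and immune miRNAs ran against miR-28, and they were higher on concentrate. Of 8 names 7 rose and 0 fell on concentrate against grass, beside 34.0% of all tested names called (57 higher and 51 lower), among them miR-451 of red cells (1.30 ± 0.37, adjusted p = 0.00526) and miR-142-5p of blood cells in general (0.69 ± 0.22, adjusted p = 0.0129). The median over the 8 was 0.67, against 0.01 over all tested names. Their summed level had a median of 5674 CPM (1118 to 52143) on concentrate and 2842 CPM (556 to 12589) on grass. The sum is mostly miR-451, which averaged 6142 CPM of a summed 6961 CPM over all libraries. With total-count scaling 0 of the 8 were called.

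Among steers of a group, miR-28 was lower where this sum was higher, with an r of -0.59 and a rho of -0.61 (n = 64, adjusted p = 5e-05, from the smallest p that 100000 permutations can give). The r was -0.67 on concentrate, -0.49 on grass and -0.57 without the 2 libraries farthest from the median of the list. It was -0.39 when the repeated steers kept only their grass libraries, and -0.38 without the 3 libraries of extreme TMM factor. It changed sign with total-count scaling (0.25, permutation p = 0.0584) and was -0.13 (p = 0.346) with miR-10b also left out of the total. The part of blood in the diet difference of miR-28 was not tested. For miR-708 the r with this sum was 0.27 (rho 0.30, adjusted p = 0.0391), 0.25 on concentrate and 0.29 on grass. Between breeds, 1 of 8 rose in Holstein-Friesian libraries, miR-155 of activated lymphocytes (0.44 ± 0.12, adjusted p = 0.00664), and 0 fell, a smaller share than the 21.7% of all tested names.

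Endothelial miR-126 gave 1 call in the main fit. Neither arm was called by diet or by breed on average, where 34.0% and 21.7% of all tested names were called. By breed miR-126-3p lay near the threshold (0.19, adjusted p = 0.0554), and at least 1 arm was called in 8 of 9 other settings. On grass miR-126-3p was higher in Holstein-Friesian than in Charolais steers (0.34 ± 0.10, adjusted p = 0.00895), beside 30.2% of all tested names called. There miR-126-5p had 0.03 (adjusted p = 0.865). Both arms together had an r of 0.29 (adjusted p = 0.0479) with miR-28 and 0.05 (adjusted p = 0.725) with miR-708 within groups. For miR-28 the r was 0.43 on concentrate and 0.10 on grass, and without the 3 libraries of extreme TMM factor it was 0.08 (permutation p = 0.572). The smooth muscle and fibroblast sum had an r of 0.35 (adjusted p = 0.0103) with miR-28, which was 0.22 (permutation p = 0.0972) without those 3 libraries. In the average RFI contrast 0 members of any of the 5 lists were called.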

How the data were processed

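miRNAs of skeletal muscle were sequenced in 64 libraries. RNA came from a Qiagen RNeasy kit and libraries from an Illumina TruSeq stranded kit, per the labels' protocols. The submitters' processing notes name the cattle build ARS-UCD 1.2 and the tools cutadapt 2.6, FastQC 0.11.8, edgeR 3.5 and R 3.4. The sources used here do not say how small RNA was selected, or how reads were aligned, counted and annotated. What the authors deposited is 1 table of estimated counts, not normalized, for 1030 names. Some names held fractional values (0 of the 2 members did), which were rounded to whole counts. One name with empty cells was left out. The names miR-28 and miR-708 carry no arm, and mature sequences were not used here.

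Names were kept by filterByExpr over the 8 groups (318) and scaled by TMM. They were fitted with edgeR 4.0.16 in R 4.3.3, by a robust quasi-likelihood model of 8 group means with 56 residual degrees of freedom. Calls were made at a Benjamini-Hochberg adjusted p of 0.05 over the 318 names. An adjusted p of a single miRNA comes from this fit where no other tool is named. Log2 differences are given ± SE, and CPM as mean ± SD. The fit was tested on simulated data with known changes. Correlations used log2 CPM with a prior count of 2, after subtraction of group means, in Python 3.11.15, with 100000 permutations within groups. RLE, upper-quartile and total-count scaling, no filter, DESeq2 1.42.0 and limma-voom 3.58.1 were alternatives. The animal as a random block was fitted in limma-voom, so that setting changed the tool as well. The repeated steers as fixed blocks were fitted in edgeR.

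The members and the lists were chosen with earlier results of these data known. The miRNAs named were the members, all names of the lineage and striated-muscle lists, and the tested satellite cell names. Of each other list they were the 2 most abundant names and any called in the breed by diet contrast. To these came the 5 names most like each member within groups and the 3 most like it over group means. Others are marked as named after their values were seen or are part of a count of 5 or fewer.

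Replicates were separate steers. The animal numbers in the labels pair the 10 libraries of 5 steers, whose pair correlations of deviations from group means were 0.288, 0.599, -0.111, 0.165 and 0.398, with an estimated correlation within an animal of 0.392. No 2 libraries were copies, as even the closest gave a chi-square of 239 per degree of freedom over the most abundant names.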

Additional observations from a re-analysis of the deposited data

Results flagged for a closer look

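In 3 of the 16 combinations of miRNA and group, 1 steer stood apart from the other 7 of its group by Dixon's criterion at the 95% level, which chance meets in about 1 in 20 groups. For miR-28 these were a low-RFI Holstein-Friesian steer on grass with 78.7 CPM and a high-RFI Charolais steer on grass with 91.4 CPM. The Charolais steer was one of the 5 sampled on both diets and also had the highest miR-28 of the concentrate libraries, 72.2 CPM. For miR-708 it was a high-RFI Holstein-Friesian steer on concentrate with 41.2 CPM, the highest value of the 64 libraries. Without it the breed by diet difference of miR-708 was -1.35 (adjusted p = 0.00868, edgeR) in place of -1.05, and the RFI difference in Holstein-Friesian steers on concentrate was 0.08 in place of -0.50. This steer was singled out for its extreme value, and miR-708 was chosen by its breed and diet levels. That p-value is therefore not independent of either choice, and no conclusion is drawn from it.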

How the results depend on the processing

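With the animal as a random block in limma-voom, the breed by diet difference was 0.07 (adjusted p = 0.710) for miR-28 and -0.79 (adjusted p = 0.164) for miR-708. With the repeated steers as fixed blocks in edgeR it was 0.10 (adjusted p = 0.582) and -1.02 (adjusted p = 0.0996). The pairing changed no call of the members.

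For miR-28 the difference turned to -0.022 (adjusted p = 0.950) with upper-quartile scaling, -0.045 (0.958) with total-count scaling and -0.033 (0.898) with miR-10b also left out of the total. It ran from -0.015 to 0.14 with 1 library left out. For miR-708 it was -1.13 (adjusted p = 0.0462) with DESeq2, and -1.35 to -0.92 with 1 library left out. Total-count scaling moved the miR-28 differences to -0.72 for diet, -0.74 for diet in Holstein-Friesian steers and 0.086 for RFI in Holstein-Friesian steers on concentrate. That scaling shifted the median of all names by 0.14 between breeds, -0.25 between diets, -0.12 between RFI classes and -0.12 in the breed by diet contrast. Leaving out miR-10b as well shifted it by 0.19 between breeds. Of 108 diet calls, 57 were higher, against 7 of 125 with total-count scaling, and of 69 breed calls 35 were higher, against 109 of 114 with that scaling and miR-10b left out. The cause of these changes, and of changes elsewhere, was not tested.

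The correlation of miR-28 with miR-708 turned to 0.44 with total-count scaling and 0.23 with miR-10b also left out. With the same settings, that of miR-708 with the miR-151 arms turned to 0.46 and 0.24. That of miR-28 with the blood list turned to 0.25 with total-count scaling. That of miR-28 with the satellite cell list turned to -0.10 with RLE scaling and -0.024 without the libraries of extreme TMM factor. That of miR-708 with endothelium turned to -0.027 with RLE scaling and -0.019 when the repeated steers kept only their grass libraries. The breed difference of miR-151-5p was 0.0047 and 0.031 with total-count scaling, with and without miR-10b. That of miR-151-3p was 0.13 and 0.17 with these, 0.062 with upper-quartile scaling, 0.0024 with RLE, 0.0022 with DESeq2, 0.021 with no filter and 0.011 when the repeated steers kept only their grass libraries.

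Of all 318 names, breed calls numbered 74 with RLE scaling, 81 with upper-quartile scaling, 80 with DESeq2 and 114 with total-count scaling without miR-10b. They numbered 62 with limma-voom, 64 with the random block, 61 with the fixed blocks and 78 without the libraries of extreme TMM factor. In breed calls, the miR-151 list had 1 with total-count scaling without miR-10b. The satellite cell list had 5 with upper-quartile scaling and 6 with total-count scaling without miR-10b. The endothelium list had 2 with that scaling, and 1 with RLE or upper-quartile scaling, DESeq2, limma-voom, either block, or without the libraries of extreme TMM factor. The smooth muscle and fibroblast list had 5 with upper-quartile scaling or DESeq2, 6 with total-count scaling without miR-10b, and 1 with limma-voom or either block. Diet calls over all 318 names numbered 120 with RLE, 104 with upper-quartile and 125 with total-count scaling, 7 of the last higher. They numbered 100 with total-count scaling without miR-10b, 123 with DESeq2 and 101 with limma-voom. In diet calls, the miR-151 list had 2 with total-count scaling. The satellite cell list had 1 with upper-quartile scaling, total-count scaling without miR-10b or limma-voom. The blood list had 0 with total-count scaling. The smooth muscle and fibroblast list had 2 with RLE scaling or DESeq2, 3 with upper-quartile and 5 with total-count scaling. The library with the fewest miR-708 reads had 20, so differences in it are bounded by depth as well as by the spread between steers.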
